A study of Mus musculus with 2 samples.

Results

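Peaks of open chromatin at promoters with few CpG sites made up 2761 of the 48286 peaks in the first library of spleen DNase-seq and 1376 of the 28837 peaks in the second. A peak was a member where it lay within 1 kb of a start site of a protein-coding gene and every annotated start site within 1 kb of it was CpG-poor. A start site was CpG-poor where the 1000 bases centred on it had a CpG observed over expected ratio under 0.4, that is, the CpG count times the length over the C count times the G count (mm10, GENCODE M21). The rule used positions and reference sequence, and no measured signal. The members were 13.4% of the 20646 promoter peaks of replicate 1 and 8.35% of the 16486 promoter peaks of replicate 2.

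In DNase-seq, DNase I cuts DNA where chromatin is open, and the ends it leaves are sequenced. The tissue was whole spleen of male mice aged 14 days of the F1 strain B6CASTF1/J, with no treatment or altered allele named in the labels. The 1 group held 2 libraries: replicate 1 from 3 males and replicate 2 from 1 male, both with 1 shared donor entry. With no second group, every comparison is a description of these libraries with no test. In bulk tissue, fewer cells of a type and less open chromatin per cell cannot be told apart.

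Most mammalian promoters lie in CpG islands, stretches of unmethylated DNA that keep their CpG sites and are open in nearly every tissue. CpG-poor promoters have lost most CpG sites over evolution and belong more often to genes used in few cell types, such as haemoglobins, antigen receptor chains and olfactory receptors. TATA boxes and sites for tissue-restricted factors are known to be more frequent in CpG-poor promoters, and sites for SP, NRF1 and YY1 in CpG islands.

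10 member peaks are printed here because each carries a motif that the results below count, or, for Tldc1, because it was the member with the highest mean signal. Each sequence is the longest stretch of the replicate 1 peak that holds no annotated UTR base, from mm10 and on the strand of its gene. Capitals mark matches on either strand to the GATA, CACCC box, PU.1, ETS with CG, RUNX, EBF, octamer, IRF, AP-1, NFY, CRE and GC box motifs, whose letters are given with the motif counts.
Tldc1 (chr8:119778417-119778580, - strand, centre outside protein-coding genes, a GC box, and several CG pairs outside it): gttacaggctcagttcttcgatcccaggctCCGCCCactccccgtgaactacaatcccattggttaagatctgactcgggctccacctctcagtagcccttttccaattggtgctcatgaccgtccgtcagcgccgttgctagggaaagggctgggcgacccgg
Slc4a1 (chr11:102363701-102363940, - strand, centre in an intron, GATA): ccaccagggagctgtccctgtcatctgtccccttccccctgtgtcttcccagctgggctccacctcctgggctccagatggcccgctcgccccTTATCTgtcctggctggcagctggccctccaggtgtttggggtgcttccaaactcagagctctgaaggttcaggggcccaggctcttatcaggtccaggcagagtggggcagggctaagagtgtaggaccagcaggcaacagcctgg
Rac2 (chr15:78571661-78571900, - strand, centre in an intron, GATA, a GC box and ETS with CG): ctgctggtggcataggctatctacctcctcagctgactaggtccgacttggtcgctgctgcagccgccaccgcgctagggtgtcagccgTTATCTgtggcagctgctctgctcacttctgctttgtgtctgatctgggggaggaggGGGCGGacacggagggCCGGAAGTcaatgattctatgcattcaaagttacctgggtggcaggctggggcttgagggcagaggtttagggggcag
Arhgap30 (chr1:171388801-171388953, + strand, centre outside protein-coding genes, RUNX): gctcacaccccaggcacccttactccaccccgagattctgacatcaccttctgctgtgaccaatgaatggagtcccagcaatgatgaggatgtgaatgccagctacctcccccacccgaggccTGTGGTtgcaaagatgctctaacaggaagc
Cd79b (chr11:106314530-106314664, - strand, centre in a coding exon, EBF and the octamer): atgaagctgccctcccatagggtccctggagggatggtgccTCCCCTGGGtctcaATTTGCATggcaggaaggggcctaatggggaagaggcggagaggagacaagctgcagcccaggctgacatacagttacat
Cr2 (chr1:195176717-195176860, - strand, centre outside protein-coding genes, GC boxes): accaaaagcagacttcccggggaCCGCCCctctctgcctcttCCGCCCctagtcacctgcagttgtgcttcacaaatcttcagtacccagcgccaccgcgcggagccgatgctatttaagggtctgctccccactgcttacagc
Lat (chr7:126369542-126369660, - strand, centre in a non-coding exon, RUNX): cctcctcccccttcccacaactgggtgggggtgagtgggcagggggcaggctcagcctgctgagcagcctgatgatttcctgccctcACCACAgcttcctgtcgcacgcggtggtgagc
H2-Aa (chr17:34287824-34288000, - strand, centre outside protein-coding genes, CRE and NFY): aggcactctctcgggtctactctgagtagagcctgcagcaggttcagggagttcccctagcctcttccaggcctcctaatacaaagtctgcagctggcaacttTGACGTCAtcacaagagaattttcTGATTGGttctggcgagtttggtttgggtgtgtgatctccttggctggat
Rsad2 (chr12:26456453-26456600, - strand, centre outside protein-coding genes, IRF and AP-1): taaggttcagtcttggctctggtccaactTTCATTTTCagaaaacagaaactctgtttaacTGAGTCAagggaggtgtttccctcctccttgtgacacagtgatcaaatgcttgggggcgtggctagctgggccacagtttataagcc
Irgm2 (chr11:58214841-58215000, + strand, centre in an intron, IRF and a GC box): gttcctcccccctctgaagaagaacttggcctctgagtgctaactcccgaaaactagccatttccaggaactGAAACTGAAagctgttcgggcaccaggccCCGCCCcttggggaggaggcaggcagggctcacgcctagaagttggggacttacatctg

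The footprint lists, which hold short stretches protected from DNase I inside open chromatin, touched some of these matches and not others. The GC box of Tldc1, both GC boxes of Cr2, the EBF match of Cd79b, the CRE and NFY matches of H2-Aa, the IRF match of Rsad2 and the GC box of Irgm2 touched a footprint in both libraries. The AP-1 match of Rsad2 touched one in replicate 2, and the GATA and GC box matches of Rac2 and the RUNX match of Arhgap30 touched one in replicate 1. The GATA match of Slc4a1, the RUNX match of Lat, the octamer of Cd79b, the IRF match of Irgm2 and the ETS match of Rac2 touched none in either library.

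The CpG-poor promoter peaks were weaker than other promoter peaks and close in signal to peaks away from start sites, which are those over 1000 bases from any protein-coding start site and include peaks inside genes. The signal is the authors' own value for each peak, on a scale that no source used here states. The median signal of members was 1.46 in replicate 1 and 1.44 in replicate 2, against 3.58 and 3.12 at other promoter peaks. Peaks away from start sites had medians of 1.16 and 1.31. Leaving out the highest and the lowest 10% of members, the signal ran from 0.705 to 4.07 in replicate 1 and from 0.415 to 3.19 in replicate 2. Ranked among all peaks of its library, the median member stood at percentile 49.2 and 40.01, against 76.0 and 68.7 for other promoter peaks. Above percentile 90 lay 26 members in replicate 1 and 7 in replicate 2, or 0.942% and 0.509% of them, against 25.2% and 18.001% of other promoter peaks.

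**Figure D1:**
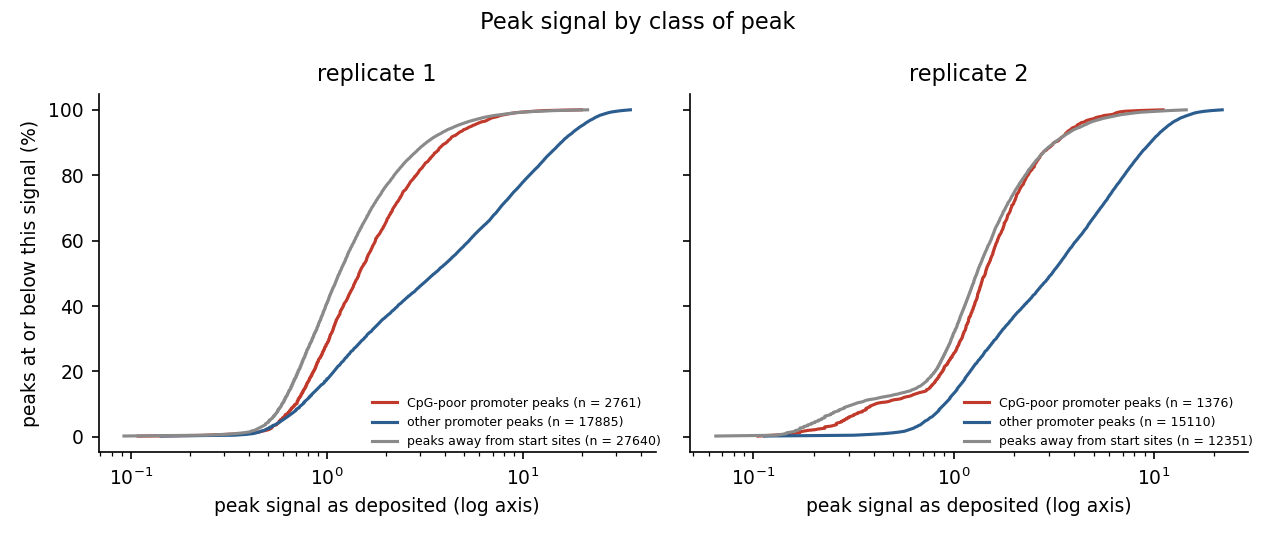
Cumulative share of peaks (vertical axis, %) at or below a given deposited signal (horizontal log axis) for the 3 classes of peak in each library. The CpG-poor promoter peaks follow the peaks away from start sites and lie left of the other promoter peaks, and in replicate 2 the CpG-poor promoter peaks and the peaks away from start sites have a shoulder under a signal of 0.5.

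A group of very weak members in replicate 2 stood apart from the rest. Under a signal of 0.5 lay 152 members of replicate 2 (11.0%) and 52 of replicate 1 (1.88%). The limit of 0.5 was chosen after the values were seen. Of these 152 peaks, 2 (1.32%) overlapped a peak of replicate 1, 71 (46.7%) held a footprint, and 145 (95.4%) had another peak under 0.5 within 50 kb. In replicate 1 the corresponding peaks had such a neighbour in 44.2% of cases. Among the 1224 members of replicate 2 at or above 0.5, 96.2% overlapped a peak of replicate 1, 95.5% held a footprint, and 8.25% lay within 50 kb of a peak under 0.5. The weak peaks away from start sites in replicate 2 had the same features, 1555 in number, with 4.95% found in replicate 1 and 91.8% within 50 kb of another. What set these peaks apart was not tested.

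Members of replicate 1 were found in replicate 2 less often than other promoter peaks were. Of the 2761 members of replicate 1, 1187 (43.0%) overlapped a peak of replicate 2 by at least 1 base, against 78.2% of other promoter peaks and 37.9% of peaks away from start sites. Of the 1376 members of replicate 2, 1180 (85.8%) overlapped a peak of replicate 1, against 92.7% and 85.0%. Against the authors' larger peak list of the other library, the shares of members were 65.8% and 87.1%. At the same signal rank the classes still differed in replicate 1. Between percentiles 50 and 75, 61.5% of members, 87.3% of other promoter peaks and 65.4% of peaks away from start sites were found in replicate 2, and between 25 and 50 the shares were 23.0%, 51.2% and 26.9%. Above percentile 75 they were close, at 97.1%, 98.4% and 97.6% up to percentile 90. In replicate 2 the order was the other way round in the middle ranks, with 97.7% of members and 90.2% of other promoter peaks found in replicate 1 between percentiles 25 and 50.

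**Figure D2:**
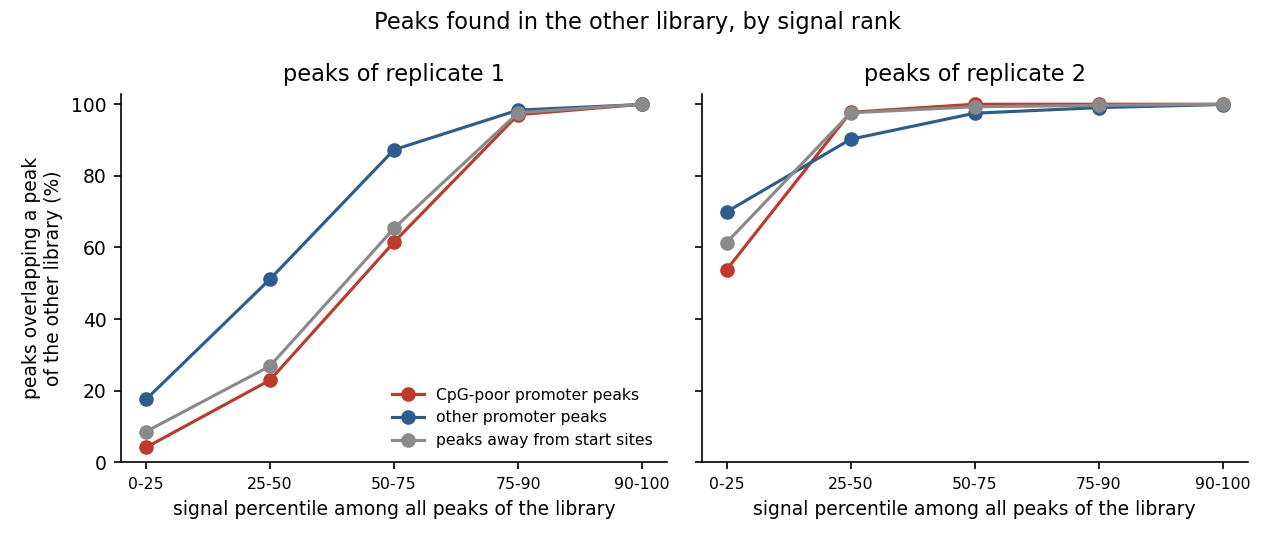
Share of peaks (vertical axis, %) that overlap a peak of the other library, by the peak's signal percentile within its own library (horizontal axis), for the 3 classes of peak. In replicate 1 the CpG-poor promoter peaks lie at 4.16%, 23.0% and 61.5% in the 3 lowest bins, below other promoter peaks at 17.6%, 51.2% and 87.3%, and all classes meet near 100% at the top.

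Where a member was called in both libraries, its signal was usually higher in replicate 1, as at other promoters. Over the 1187 peaks, the median ratio of replicate 1 over replicate 2 was 1.58, it ran from 0.992 to 2.47 without the highest and lowest 10%, and 1062 (89.5%) were higher in replicate 1. The median ratio at the 13978 other promoter peaks called in both was 1.56. The log2 signals of the 1187 peaks had a Pearson correlation of 0.801 and a Spearman correlation of 0.772 across sites, which share their libraries and are not independent. No source states that the libraries share a scale, so a ratio of a gene is read against 1.58.

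**Figure D3:**
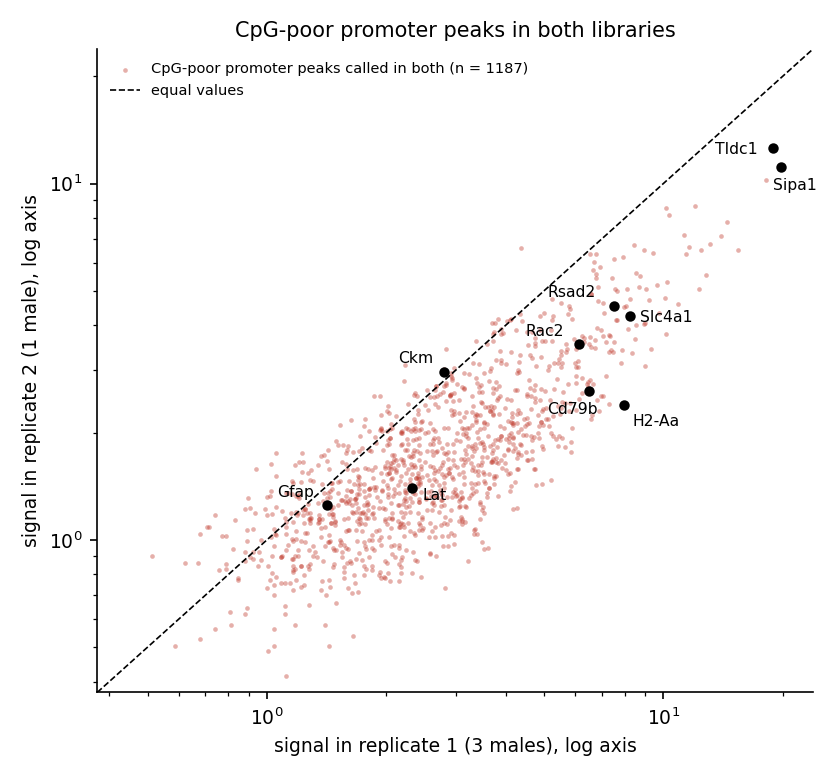
Signal of each of the 1187 CpG-poor promoter peaks called in both libraries, replicate 1 on the horizontal and replicate 2 on the vertical log axis, with the line of equal values dashed and 10 genes marked. Tldc1 and Sipa1 lie at the top right, most points lie below the line, and Ckm lies just above it.

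Many members sat at secondary start sites and inside genes. In replicate 1, 1098 members (39.8%) were near only genes whose start sites were all CpG-poor, and 1663 (60.2%) were near a gene with another start site, elsewhere, at a ratio of 0.4 or more. In replicate 2 the numbers were 597 (43.4%) and 779 (56.6%). The first kind held the start site in 50.1% and 50.4% of cases and the second in 29.0% and 27.3%, with median signals of 1.59 and 1.48 for the first and 1.40 and 1.40 for the second. Transcripts that the annotation does not class as protein-coding, such as retained introns of a coding gene, were the only ones starting within 1 kb for 946 members of replicate 1 (34.3%) and 464 of replicate 2 (33.7%).

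Compared with other promoter peaks, members less often covered the start site itself. They held it in 37.4% of cases in each library, against 57.7% and 62.6%, and lay more than 500 bases away in 27.5% and 25.7%, against 10.8% and 7.56%. At the start site the difference in signal was widest: members that held it had medians of 1.78 and 1.60, and other promoter peaks that held it 6.34 and 4.34. More than 500 bases away the 2 classes were close, at 1.33 and 1.42 for members and 1.24 and 1.33 for the others. The centre fell in an intron for 52.7% and 47.9% of members, in a UTR for 14.8% and 18.1%, in a coding exon for 7.57% and 10.1%, and outside protein-coding genes for 17.8% and 17.2%. Other promoter peaks had their centre in an intron in 28.3% and 25.3% and outside genes in 38.0% and 38.8%.

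In the open stretch itself the members also held few CG pairs, which the choice of CpG-poor start sites in part builds in. In the 200 bases at the centre of each member the median was 4 CG pairs in each library, against 17 and 18 at other promoter peaks. The GC content was 54.5% and 56.5%, against 65.5% and 66.5%. Peaks away from start sites were near the members, with medians of 3 and 4 CG pairs and a GC content of 52% and 54%. No CG pair at all was found in 130 members (4.71%) of replicate 1 and 44 (3.20%) of replicate 2. The median CpG ratio of these 200 bases was 0.256 and 0.276. A ratio of 0.4 or more was found there in 638 members (23.1%) and 367 (26.7%), against 26.3% and 33.3% of peaks away from start sites. The median signals of these members were 1.59 and 1.59, against 1.44 and 1.39 for the other members, and 51.3% and 91.0% of them were found in the other library, against 40.5% and 83.8%. A footprint was present in 93.6% and 90.1% of members, against 83.2% and 86.3% of other promoter peaks, at 14.3 and 14.1 footprints per kb against 15.0 and 15.4. Peaks away from start sites held one in 93.2% and 90.8% of cases, at 14.2 and 15.0 per kb. The share with a footprint was thus not particular to members.

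The strongest CpG-poor promoter peaks belonged to genes of varied function. Tldc1 had signals of 18.96 in replicate 1 and 12.6 in replicate 2, the highest mean of all members. Its start sites had ratios of up to 0.346 in the surrounding 1000 bases, while the central 200 bases of its peak had 13 CG pairs and a ratio of 0.735. Sipa1, a GTPase-activating protein for Rap, had 19.8 and 11.1. Sipa1 also has a start site at 0.790, and the central 200 bases of its CpG-poor peak held 16 CG pairs. Cirbp, a cold-induced RNA-binding protein, had 18.2 and 10.2 at a peak 705 bases upstream of a CpG-poor start site, and has another start site at 0.984.

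Transcription factors, some of them of blood cells, were among the next strongest. Lyl1, a basic helix-loop-helix factor of blood cells, had 14.0 and 7.11, and Nfe2, the large subunit of the erythroid factor NF-E2, had 12.4 and 6.51. Irf9, the DNA-binding subunit of the interferon-activated complex ISGF3, had 14.4 and 7.81 at start sites of up to 0.327. E2f2, a cell-cycle factor, had 10.3 and 8.17 at a peak centred in an intron, 543 bases from a CpG-poor start site, and has another start site at 0.949. Irf9 and Lyl1 had only CpG-poor start sites, while Nfe2, just over the limit at 0.443, and E2f2 had others.

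The remaining strong members had other roles. Pold4, a small subunit of DNA polymerase delta, had 15.5 and 6.52, and its central 200 bases held 12 CG pairs. Mknk2, a kinase that phosphorylates eIF4E, had 13.1 and 6.78, and Plin3, a lipid droplet coat protein, had 10.1 and 8.55. Amigo3 and Rnf123 shared a peak between their start sites with 12.01 and 8.63. Of these 12 genes, all were higher in replicate 1, and the ratio ran from 1.19 at Plin3 to 2.37 at Pold4.

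CpG-poor genes seldom had an open promoter in spleen. Of 21938 protein-coding genes, 7465 (34.0%) had only CpG-poor start sites, and 471 of these, 6.31%, had a CpG-poor promoter peak in both libraries. Counted in each library by itself, there were 842 (11.3%) in replicate 1 and 486 (6.51%) in replicate 2. A promoter peak of any kind was present in both libraries at 51.1% of all protein-coding genes and at 74.1% of the 14473 genes with a start site that was not CpG-poor. Another 574 genes with such a start site had a CpG-poor promoter peak in both libraries, so that 1045 genes had one in all, 980 of them at overlapping peaks. Without olfactory and vomeronasal receptor genes, 470 of 6011 CpG-poor genes (7.82%) had a peak.

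Some groups of blood cell genes, but not all, were open far more often than CpG-poor genes at large. The gene lists were chosen with earlier results of these data known, so their order is a description. Of 29 CpG-poor genes shared by most white cells, 23 (79.3%) had a CpG-poor promoter peak in both libraries, and of 22 CpG-poor erythroid genes 17 (77.3%) did. The share was 46.4% for B cell genes (13 of 28), 30.8% for dendritic cell genes (4 of 13), 21.9% for interferon and innate genes (7 of 32) and 19.0% for T cell genes (4 of 21). Among CpG-poor genes of the tissues other than spleen the counts were 0 of 21 for liver, 0 of 18 for pancreas and gut, 0 of 16 for skin and testis and 1 of 11 for nerve and muscle. Several blood lists were as low: natural killer and cytotoxic genes had 0 of 17, granulocyte genes 0 of 22, megakaryocyte genes 0 of 14 and macrophage genes 1 of 26. Counted in replicate 1 by itself, there were 3 natural killer, 2 granulocyte, 3 megakaryocyte, 5 macrophage and 2 liver genes, 1 gene of pancreas and gut and 1 of skin and testis. The lists with higher shares had 26 leukocyte, 19 erythroid, 23 B cell, 16 interferon and innate, 11 T cell and 7 dendritic cell genes there. In that library 11.3% of all CpG-poor genes had such a peak.

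**Figure D4:**
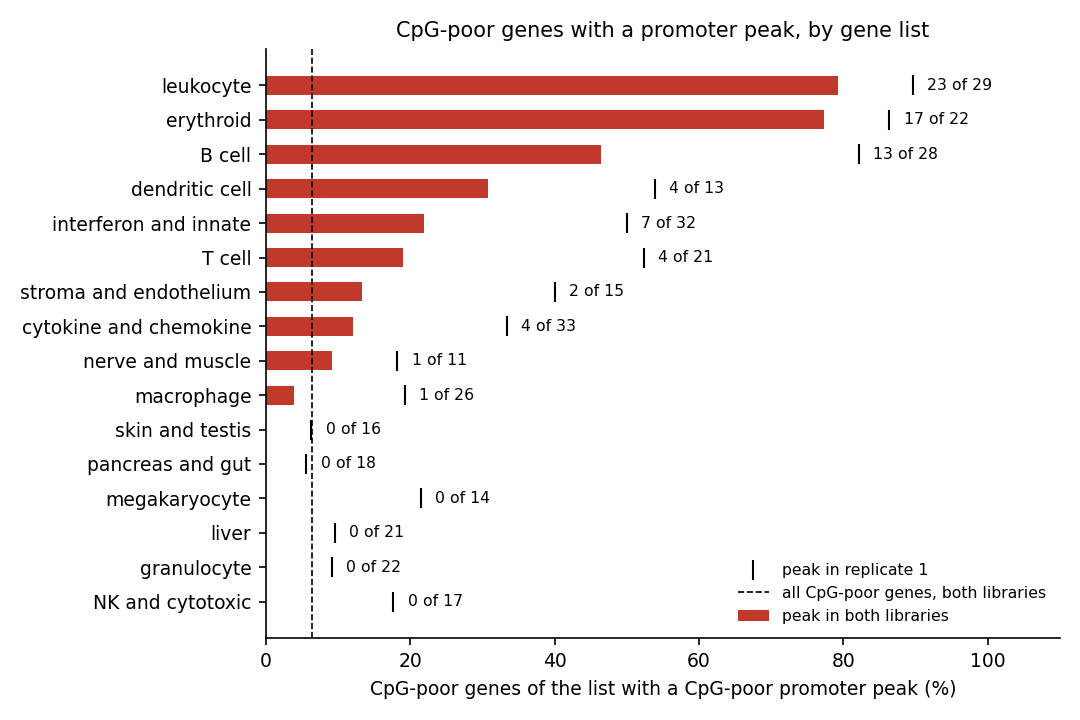
Share of the CpG-poor genes of each list (horizontal axis, %) with a CpG-poor promoter peak in both libraries (bars, with counts) and in replicate 1 (ticks). Leukocyte and erythroid genes reach 79.3% and 77.3%, the dashed line marks the 6.31% of all CpG-poor genes, and 6 lists have none in both libraries.

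Erythroid genes covered the red cell membrane, haemoglobin and their regulators. Slc4a1, the band 3 anion exchanger of the red cell membrane, had signals of 8.23 and 4.26 at a start site of ratio 0.174. Epb42, which binds band 3 to the membrane skeleton, had 4.78 and 1.42. The adult beta-globin genes Hbb-bt, with 6.46 and 2.69, and Hbb-bs, with 6.03 and 2.75, are near-identical copies whose reads may have been divided between them. The factors Klf1, with 4.42 and 1.97, Gfi1b, with 3.46 and 1.87, and Gata1, with 2.06 and 1.147, were called in both libraries. Alas2, the first enzyme of red cell haem synthesis, had 0.839 in replicate 1 and no peak in replicate 2. Hba-a1 and Hba-a2, alpha-globin copies, and the embryonic Hbb-bh1 had no promoter peak in either library, and a lack of peaks at the near-identical alpha-globin copies is uncertain.

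B cell genes were led by receptor components. Cr2, complement receptor 2 of mature B cells, had 6.71 and 3.64, and Cd79b, a signalling chain of the B cell receptor, had 6.50 and 2.61, next to Cd79a with 5.41 and 1.83. Of the 28 CpG-poor B cell genes, 23 had a peak in replicate 1 and 13 in replicate 2. Cxcr5, the follicle-homing receptor, with 3.96, and Mzb1, a chaperone of antibody-secreting cells, with 3.72, were called in replicate 1, and in replicate 2 appeared only in the larger list. Blk, a B cell kinase, with 1.73, and Ms4a1, which encodes CD20, with 2.12, also lacked a promoter peak in replicate 2. The recombinase genes Rag1 and Rag2, the kinase gene Btk and the antibody joining chain gene Jchain had none in either library.

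Antigen presentation genes had strong members. H2-Ab1, an MHC class II beta chain, had 7.54 and 5.08, and H2-Aa, the matching alpha chain, had 7.97 and 2.39. The ratio of replicate 1 over replicate 2 was 3.33 at H2-Aa and 1.49 at H2-Ab1, and no test of that difference was possible. Cd74, the invariant chain of MHC class II, had 6.89 and 2.30. Ciita, the class II transactivator, had 1.40 in replicate 1 and no peak in replicate 2. Genes more restricted to dendritic cells, among them Cd209a, Clec9a, Xcr1 and Itgax, had no promoter peak in either library.

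Leukocyte genes formed the most complete list. Rac2, a small GTPase of blood cells, had 6.14 and 3.55 at an intronic peak, and Arhgap30, a GTPase-activating protein, had 6.42 and 2.74 at its start site. Vav1, an exchange factor for small GTPases, had 5.51 and 3.39, and Itgb2, the common beta chain of leukocyte integrins, had 2.25 and 1.55. Arhgdib, Cd48 and Cd53 were called in replicate 1 only, and Gimap4, Lcp2 and Ptprc, which encodes CD45, in neither. Spi1, which encodes PU.1 and was listed for B cells and macrophages, had 3.96 and 2.06 at an intronic peak 573 bases from a CpG-poor start site. It was the 1 macrophage gene with a peak in both libraries, and Adgre1, which encodes F4/80, had none.

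T cell genes were weaker than erythroid, B cell and leukocyte genes, and fewer had a peak in both libraries. Of the 21 CpG-poor T cell genes, 11 had a CpG-poor promoter peak in replicate 1, 5 in replicate 2 and 4 in both. Cd3d, part of the T cell receptor complex, had 2.75 and 1.24, and Lat, an adaptor of T cell receptor signalling, had 2.32 and 1.40. Cd3g, the receptor chain gene neighbouring Cd3d, was called in replicate 2, with 1.04, and in replicate 1 appeared only in the larger list. Cd3e, Cd4, Cd8b1 and Cd28 had no promoter peak in either library. Among cytokine genes, Ltb, lymphotoxin beta, had 4.66 and 1.90, and Il16 had 3.73 and 1.69, while the chemokine genes Ccl3, Ccl4, Ccl5, Ccl19 and Ccl21a had none. None of the 27 CpG-poor chemokine ligand genes had a CpG-poor promoter peak in either library.

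Interferon-induced genes were open in part. Rsad2, which encodes the antiviral protein viperin, had 7.51 and 4.55, and Irgm2, an immunity-related GTPase, had 8.13 and 3.91. Igtp, a GTPase of the same family, had 6.51 and 3.70, and Ifi47 had 3.08 and 1.68. Ifit1, Ifit3, Isg15, Oas1a, Oas2 and Gbp2, which interferon also induces, had no promoter peak in either library. Isg20, an interferon-induced exonuclease, had 5 CpG-poor promoter peaks in replicate 1 and 4 in replicate 2, the strongest with 7.64 and 4.13. It was among the 3 genes with the most such peaks, next to Iqsec1, with 7 and 4, and Tmc8, with 4 and 6. The best peaks of Tmc8 lay at different sites in the 2 libraries.

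Genes of other tissues, of stroma and endothelium, and of megakaryocytes and granulocytes gave few members. Their signals lay on both sides of the medians of all members, 1.46 in replicate 1 and 1.44 in replicate 2. Ckm, the muscle creatine kinase, had 2.79 and 2.97 at an intronic peak 685 bases from its start site, with a ratio of 0.941 against the 1.58 of all members. Madcam1, an adhesion molecule of splenic sinus lining, had 1.59 and 1.76, a ratio of 0.903. The astrocyte filament gene Gfap, with 1.42 and 1.25, and the fetal liver gene Afp, with 1.39 and 1.35, have other start sites just over the limit, at 0.422 and 0.424. Cdh5, the endothelial cadherin, had 1.67 and 0.464 at different sites, so its second value belongs to the weak peaks of replicate 2. Cela1, an elastase, had 3.73 and 2.24, and Itgb3, the platelet integrin beta chain, 4.17 and 1.22, both at CpG-poor start sites of genes with another start site over the limit. Mmp9, a granulocyte protease, had 1.23 and 1.55 at a peak 846 bases from a start site. The first genes without any promoter peak in the alphabetical order of their lists included Camp, an antimicrobial peptide of neutrophils, Clec1b of platelets, Ctsw of natural killer cells, Cd27 of lymphocytes, Col3a1 of stroma, Ahsg of liver, Alpi of gut, Acta1 of muscle and Acr of sperm.

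Gene families named by symbol also differed, set against the 6.31% of all CpG-poor genes that had a CpG-poor promoter peak in both libraries. Of 1124 CpG-poor olfactory receptor genes, 1 had a CpG-poor promoter peak in both libraries, Olfr373, with 1.74 and 1.06. None of 330 vomeronasal receptor genes and none of 92 keratin and keratin-associated genes had any. In contrast, 4 of the 8 Gimap genes, GTPases of lymphocytes that are all CpG-poor, had a peak in both, and 6 had it in replicate 1. Of CpG-poor genes named Cd for a surface marker 15 of 60 had a peak in both, of Zfp zinc finger genes 17 of 74, and of Trim genes 6 of 31. Slc transporter genes, with 6 of 102 (5.88%), lay near the share of all CpG-poor genes. Cytosolic ribosomal protein genes lay almost wholly outside the class, with 5 CpG-poor genes of 98 and no CpG-poor promoter peak at those 5.

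Replicate 1 had 475 genes with a CpG-poor promoter peak and no promoter peak of any kind in replicate 2, and replicate 2 had 20 such genes. The strongest of replicate 1 were Hpd, a tyrosine catabolism enzyme, with 6.56, then Cxcr5, Mzb1 and Fam129c, a B cell gene, with 3.09. The peak of Hpd lay 991 bases from the start site and was found in replicate 2 just outside the 1 kb limit. The strongest of replicate 2 were Dand5, an inhibitor of Nodal signalling, with 1.57, Mroh2a with 1.28, Cd3g, and Dapl1 with 0.732. The peaks of Dand5, Cd3g and Dapl1 overlapped a peak in the larger list of replicate 1, and that of Mroh2a did not. The peak of Dand5 lay 978 bases from the start site, near the 1 kb limit. The genes nearest to the limit of 0.4 had the following signals. Rbpjl, just inside, had 2.12 and 1.55, and Rufy1, likewise just inside, had 1.37 and 1.02. Nmur1, just outside, had 1.90 and 1.55, and Cpne4, also just outside, 0.781 and 0.724.

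For the GATA, RUNX, PU.1 and AP-1 motifs the shares in CpG-poor promoter peaks lay nearer to those in peaks away from start sites than to those in other promoter peaks. Matches were searched on both strands in the 200 bases at the centre of each peak, and a match is a description of letters, not a bound site. AGATAA, the GATA motif, was in 10.8% of members of replicate 1 and 9.74% of replicate 2, against 3.11% and 2.27% of other promoter peaks and 11.6% and 8.24% of peaks away from start sites. TGTGGT, the RUNX motif, was in 20.4% and 18.02%, against 7.19% and 6.27% and then 20.2% and 17.3%. GAGGAAGT, the PU.1 motif, was in 7.03% and 5.16%, against 1.94% and 1.65% and then 5.47% and 3.04%. TGANTCA, the AP-1 motif, was in 6.66% and 6.03% of members, against 2.57% and 2.09% and then 6.78% and 5.77%. Other motifs did not all follow this order. CCCNNGGGA, the EBF motif, was in 6.45% and 7.49% of members, 6.66% and 6.66% of other promoter peaks and 5.69% and 4.85% of peaks away from start sites.

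All CpG-poor promoters, open or not, served as a further reference, with the 200 bases centred on the most upstream start site of each of the 7465 genes. There AGATAA was in 10.01%, near the share in members. RUNX matches were in 15.6%, PU.1 matches in 3.47% and the E-box CAGCTG in 14.4%, below the 21.7% and 21.003% of members for the E-box. Other motifs were not lower there. AP-1 matches were in 6.67%, near the share in members. IRF matches were in 7.14%, above the 5.58% and 4.51% of members. TATAAA, the TATA box, was in 15.8%, above the 4.06% and 3.13% of members. GC boxes differed as well, and GGGCGG was in 17.6% and 20.9% of members and 8.40% of the reference promoters. Other promoter peaks held it in 58.3% and 63.3%. The motif has a CG pair, so that difference is built into the choice of promoters with few CpG. AGNGGGC, part of the CTCF motif, was in 26.0% and 32.7% of members, close to the 30.2% and 31.8% of other promoter peaks. It was in 11.5% of the reference promoters. GC content differs between these classes, and its part in the shares was not tested.

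**Figure D5:**
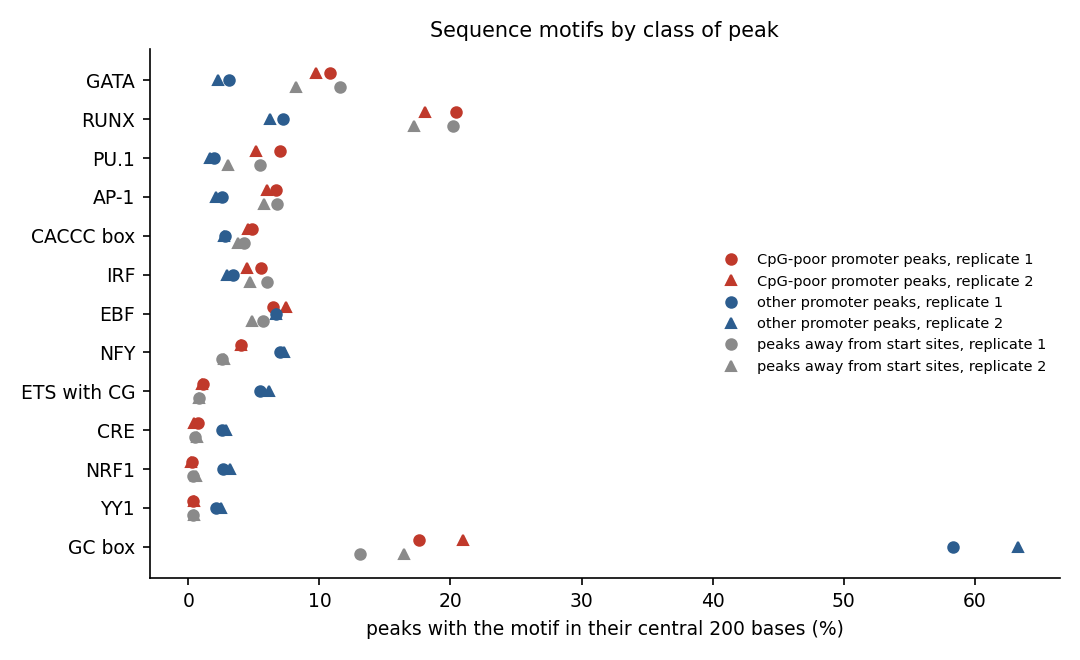
Share of peaks (horizontal axis, %) with each motif in their central 200 bases, for the 3 classes of peak and both libraries (circles for replicate 1, triangles for replicate 2). CpG-poor promoter peaks lie near the peaks away from start sites for GATA, RUNX and GC box motifs. The other promoter peaks reach 58.3% and 63.3% for the GC box, which has a CG pair.

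Like the GC box, other motifs with a CG pair had low shares in members. This is built into the choice of promoters with few CpG and is given as a description only. CCGGAAGT, the ETS motif with CG, was in 1.16% and 1.02%, against 5.49% and 6.19% of other promoter peaks, and GCGCATGCG, the NRF1 motif, in 0.254% and 0.218%, against 2.67% and 3.15%. TGACGTCA, the CRE, was in 0.724% and 0.436%, against 2.55% and 2.90%, and AAGATGGCG, the YY1 motif, in 0.362% and 0.436%, against 2.13% and 2.50%. CCAATCA, the NFY motif, has no CG pair and was also less frequent, in 3.98% and 3.997% against 7.03% and 7.30%. CCACACCC, the CACCC box, was in 4.89% and 4.58% against 2.79% and 2.73%.

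For GATA, RUNX and GC box matches, footprints kept the order of members and other promoter peaks. For the GC box that order is built into the choice of promoters. With 5 bases added on each side, 1.53% of the 7506 member footprints of replicate 1 and 0.969% of the 3407 of replicate 2 held AGATAA, against 0.207% and 0.152% in other promoter peaks. RUNX matches were in 2.44% and 2.14%, against 0.603% and 0.585%, and GC boxes in 4.97% and 5.96%, against 20.3% and 20.9%. Against peaks away from start sites, the order was not kept for RUNX in either library or for GATA in replicate 1. Footprints there held RUNX matches in 2.57% and 2.30% of cases and AGATAA in 1.31% and 0.725%. IRF matches did not keep 1 order, with 0.586% and 0.176% in members against 0.292% and 0.239% in other promoter peaks. Members with a GC box had higher median signals than those without, 1.85 against 1.41 in replicate 1 and 1.76 against 1.38 in replicate 2. They were found in the other library in 55.7% and 94.1% of cases, against 40.3% and 83.5%. The GC box was not alone in this. Members with AGNGGGC had medians of 1.60 against 1.44 in replicate 1 and 1.63 against 1.35 in replicate 2. Those members were found in the other library in 58.9% and 93.8% of cases, against 37.4% and 81.9%. For NFY matches the medians were 1.98 against 1.45 and 1.76 against 1.44. For IRF matches they were lower, 1.37 against 1.47 and 1.36 against 1.45. For GATA matches the median signals were 1.76 against 1.44 in replicate 1 and 1.48 against 1.44 in replicate 2.

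Some motifs were more frequent in single gene lists than in all genes with a member, in small numbers and with no test. Each gene with a member in both libraries was scored at its best peak of replicate 1, over all list genes whether or not every start site was CpG-poor. AGATAA was in 7 of 20 erythroid genes, Hemgn, Kel, Rhd, Slc4a1, Tmcc2, Trim10 and Tspo2, which is 35.0% against 9.76% of all 1045 genes with a member in both. GAGGAAGT was in 9 of 25 leukocyte genes (36.0% against 6.51%), among them Vav1, Itgal, Itgb2, Coro1a and Inpp5d, and in none of the 20 erythroid or 15 B cell genes. TGTGGT was in 9 of 25 leukocyte genes (36.0% against 19.0%), such as Arhgap30 and Was, and in 3 of 4 T cell genes, Cd3d, Cd69 and Lat. CCCNNGGGA, the EBF motif, was in 4 of 15 B cell genes (26.7% against 6.89%), among them Cd37, Cd79b and Spib. ATTTGCAT, the octamer, was in 1 of 15, Cd79b. GAAANNGAA, the IRF motif, was in 4 of 8 interferon and innate genes (against 4.59% of all), Igtp, Irgm2, Rsad2 and Zbp1. GGGCGG was in 5 of these 8 (against 23.3% of all), Ifi47, Igtp, Irgm2, Usp18 and Zbp1. CCACACCC was in 1 of 20 erythroid genes, Hbb-bs, near the 4.88% of all. The motifs named here are a choice from the 20 searched, and others were also more frequent in a list. TATAAA, the TATA box, was in 4 of 20 erythroid genes (20% against 3.25%). CAGGTG, an E-box, was in 6 of 15 B cell genes (40% against 21.1%), and GGGCGG in 9 of 25 leukocyte genes (36.0% against 23.3%). Of the 5 dendritic cell list genes, H2-Aa and H2-Eb1 held CCAATCA, and H2-Aa held TGACGTCA; MHC class II promoters are known for a Y box bound by NFY and an X box with a CRE-like part. The sequences printed for Slc4a1, Arhgap30, Lat, Cd79b, H2-Aa, Rsad2 and Irgm2 show these matches.

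TATA boxes were less frequent at CpG-poor genes with a CpG-poor promoter peak in both libraries than at those with no promoter peak. TATAAA on the sense strand, 40 to 20 bases upstream of the most upstream start site, was present at 365 of the 7465 CpG-poor genes (4.89%, 95% Wilson interval 4.42 to 5.40). At the 471 with a CpG-poor promoter peak in both libraries it was present at 11 (2.34%, interval 1.31 to 4.13), and at the 6569 with no promoter peak at 344 (5.24%, interval 4.72 to 5.80). Other protein-coding genes had it in 133 of 14473 cases (0.919%). The intervals cover counting error only, and genes of a family are not independent. At the start site nearest to the peak, 13 of the 1045 genes with a member in both libraries had TATAAA in this window. These 13 included Irf7, an interferon regulator, with 3.14 and 2.04, Aqp1, a water channel of red cells, with 4.32 and 3.16, Hemgn, an erythroid nuclear protein, with 3.44 and 1.147, and Cd69, a lymphocyte activation marker, with 2.82 and 0.732.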

How the data were processed

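DNase-seq of spleen was measured in 2 libraries of 1 group, mapped to mm10 per the labels. The authors deposited, for each library, 2 peak lists with a signal value per peak and a footprint list whose score is 1 constant, so only footprint positions were used. The aligner, the callers, their versions and the signal's normalization are unknown (not given in the sources used here), and the read depth is unknown here. The list with fewer bases (48286 and 28837 peaks) was used throughout. Members were the peaks within 1 kb of a start site of any transcript of protein-coding genes (GENCODE M21), with every annotated start site of any gene within 1 kb under a CpG ratio of 0.4. A gene was called CpG-poor where all its start sites were under 0.4, and its value was its best CpG-poor promoter peak. Peaks shared between libraries overlapped by at least 1 base. Sequences and motifs were read from GRCm38, the mm10 assembly. A percentile is the rank of a signal among all peaks of its library.

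The members and the 16 gene lists were chosen with earlier results of these data known. The rule for naming genes took the 12 with the highest mean signal, the top 2 and the first gene without a peak in each list, the top 4 called in 1 library, the 2 on either side of the limit and the 3 with the most peaks. Other genes of the lists were named after their values were seen. Of the 468 gene entries in the lists, 2 were not analysed here. With 2 libraries and no contrast no test was possible. The replicates carry the same donor entry, so their spread may be partly technical. The scripts were tested on simulated data and used Python 3.11.15, numpy 2.4.6, pandas 2.3.3 and scipy 1.17.1.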

Additional observations from a re-analysis of the deposited data

How the results depend on the processing

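The mean number of CpG-poor promoter peaks over the libraries, 2068.5 ± 979 (SD, n = 2), was 1322.5 with a CpG limit of 0.3, 3273 in the authors' larger peak lists and 1363.5 with transcripts of type protein_coding only, and ran from 1376 to 2761 with a replicate left out. Their share of promoter peaks, 10.9%, was 6.93% with a limit of 0.3 and 15.1% with 0.5, and ran from 8.35% to 13.4% with a replicate left out. The share of CpG-poor genes with a CpG-poor promoter peak in both libraries, 6.31%, was 3.67% with a limit of 0.3, 9.93% with 0.5, 9.44% in the larger lists and 5.40% within 500 bases, and ran from 6.51% to 11.3% with a replicate left out. The median signal over that of other promoter peaks, 0.435, was 0.395 within 500 bases. The share with a footprint, 91.9%, was 85.3% in the larger lists and 95.1% without peaks under a signal of 0.5, an alternative chosen after seeing the data. The share with AGATAA, 10.3%, was 11.7% with a limit of 0.3, 8.60% with 0.5, 9.12% with transcripts of type protein_coding only, 11.1% with as many of the strongest peaks in each library, and 9.23% over whole peaks.

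Of 80 alternatives, 61 stayed near the reported value, which means within 1 SD over the replicates, for the number of peaks within 1.5 times, and for the share of CpG-poor genes with a peak in both libraries and the share with TATAAA inside the 95% Wilson interval. For the measures judged by SD, leaving out 1 of 2 libraries always stays within 1 SD, so those alternatives could not move. The count of 61 therefore does not measure how stable these results are. The share found in the other library has no value with a replicate left out. Its SD was 30.2 around a mean of 64.4%, so its other alternatives could hardly move either. No paired analysis was possible because there was 1 group. The unknown depth limits what a missing peak means, most of all in replicate 2, which had fewer peaks.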
